A study of Homo sapiens with 4 samples.

Results

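The transporters and enzymes of glycolysis and of the pentose phosphate pathway were followed as 32 genes listed by name, out of 78686 features in the deposited count tables. They were found by matching Ensembl identifiers, without their version, to gene symbols, and each of the 32 matched 1 feature. They were listed by pathway step and not by a threshold on measured values, though with earlier results of these data known, and the lactate dehydrogenases were not part of the list. The genes were ordered along 9 steps: glucose uptake, hexose phosphates, the phosphofructokinase step, aldolase and triose phosphates, lower glycolysis, the oxidative and the non-oxidative pentose phosphate branch, PRPP synthesis and glycerol phosphate.

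Glycolysis splits glucose into pyruvate in the cytosol and yields ATP without oxygen. The pentose phosphate pathway branches off at glucose 6-phosphate; its oxidative branch makes NADPH and its non-oxidative branch exchanges carbon between pentoses and glycolytic sugars. Cultured cells with impaired mitochondrial respiration are known to rely more on glycolysis, and most steps are served by isoenzymes encoded by different genes, of which a given cell type uses a few.

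Expression was compared between 2 libraries of HEMK1 knockout (KO) cells, replicates 1 and 2, and 2 libraries of wild-type (WT) cells, replicates 1 and 2. All were polyadenylated RNA of HEK293, a human line of embryonic kidney origin with an abnormal number of chromosomes, grown here in high-glucose medium, and no treatment beyond the editing was given. HEMK1 encodes a methyltransferase of mitochondrial release factors, the proteins that end mitochondrial translation. The KO cells were 1 clone, 1F8, grown from a single sorted cell after transfection with pooled plasmids for Cas9 and different guides, so that loss of HEMK1 and any other difference of that clone from the WT population cannot be told apart. The labels name the replicates as biological but do not say whether they were separate cultures, so p-values measure only the spread between these libraries.

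Total counts per library were 2856784 and 3202039 in KO cells and 2476471 and 2671594 in WT cells, and HEMK1 itself had 1 and 7 counts in KO libraries against 6 and 9 in WT libraries, too few to check the labels. Of 8 markers of HEK293 cells, 6 had counts in every library, and PAX2 and LHX1 were at 0 in all 4. The summed level was 261 and 232 CPM (counts scaled to a common library size) in KO libraries against 318 and 317 CPM in WT libraries. These markers did not share a direction: VIM, KRT8 and KRT18 were lower per total count in both KO libraries, and LIN28B overlapped. NEFL (108 and 129 counts in KO against 76 and 96 in WT libraries) and NEFM (10 and 13 against 6 and 5) were higher in both. Of 12 blood cell markers, 10 had a count in some library, and their summed level was 3.15 and 12.8 CPM in KO libraries, against 0 and 0.374 CPM in WT libraries. Of 7 fibroblast markers 5 had a count, led by LUM, with COL1A2 and DCN at 0 in all 4 libraries, and their summed level was 44.1 and 32.2 CPM in KO libraries against 29.5 and 27.0 CPM in WT libraries. Endothelial markers summed to at most 1.12 CPM in any library.

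The transcripts of the 32 genes differ in base composition, and the 3 richest in G and C had too few counts to be tested. GC content of the principal transcript ranged over the list between 38.7% in RPE and 66.0% in PGLS. The first 90 coding bases of the genes with the highest and the lowest coding GC content show that range, with G and C in capitals and A and T in lower case; both are read 5′ to 3′ from GENCODE 29 transcripts of GRCh38, on the plus strand of the genes PGLS (chr19:17511629-17521288) and TIGAR (chr12:4307763-4354593).
PGLS: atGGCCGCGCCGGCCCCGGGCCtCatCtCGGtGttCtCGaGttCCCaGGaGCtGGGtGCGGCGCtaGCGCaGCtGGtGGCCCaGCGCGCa
TIGAR: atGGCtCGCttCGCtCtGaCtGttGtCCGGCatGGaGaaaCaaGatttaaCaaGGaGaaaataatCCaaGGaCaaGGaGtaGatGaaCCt
PGLS, 6-phosphogluconolactonase, has 66 G or C among these 90 bases, and its 4 libraries held 15 counts in all. TIGAR, a phosphatase that lowers fructose 2,6-bisphosphate, has 40 G or C there, and its libraries held 320 counts.

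Levels were compared between genes per length, as TPM (counts per exon length, scaled to a common sum), with exon lengths of GENCODE 29. TPI1, triose phosphate isomerase (ENSG00000111669.15), had the highest mean, with 1246 and 2380 TPM in KO libraries and 1394 and 1931 TPM in WT libraries. GAPDH, glyceraldehyde 3-phosphate dehydrogenase (ENSG00000111640.15), had 1286 and 2144 TPM in KO libraries and 1486 and 1566 TPM in WT libraries. By these exon lengths GAPDH was above TPI1 in replicate 1 of both groups, and TPI1 was above GAPDH in replicate 2 of both. By principal transcript length TPI1 was above GAPDH in every library (1769 against 1324 TPM in KO replicate 1, 1984 against 1533 TPM in WT replicate 1). Their order thus depended on the length used and was not resolved. Next came PGK1, phosphoglycerate kinase, at a mean of 527 TPM over the 4 libraries, PRPS1, which makes PRPP for nucleotide synthesis, at 411 TPM, and ENO1, the ubiquitous enolase, at 385 TPM. With the length of the principal transcript in place of all exons ENO1 ranked 3rd instead of 5th.

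In all, 8 of the 32 genes averaged above 100 TPM, the others being RPE, PGD and PFKM, and the lowest level was 0.148 TPM, for ALDOA. By principal transcript length PKM and GPI also averaged above 100 TPM, at 147 and 101 TPM. TPI1, GAPDH, PGK1 and ENO1 together held 67.8% and 73.7% of the counts of the 32 genes in KO libraries, and 70.0% and 70.5% in WT libraries. The 32 genes held 0.572% and 0.814% of all counts in KO libraries, against 0.660% and 0.716% in WT libraries. Both WT shares lay between the KO shares (exact two-sided permutation test, p = 1, where 2 against 2 libraries allow no p below 0.333).

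**Figure D1:**
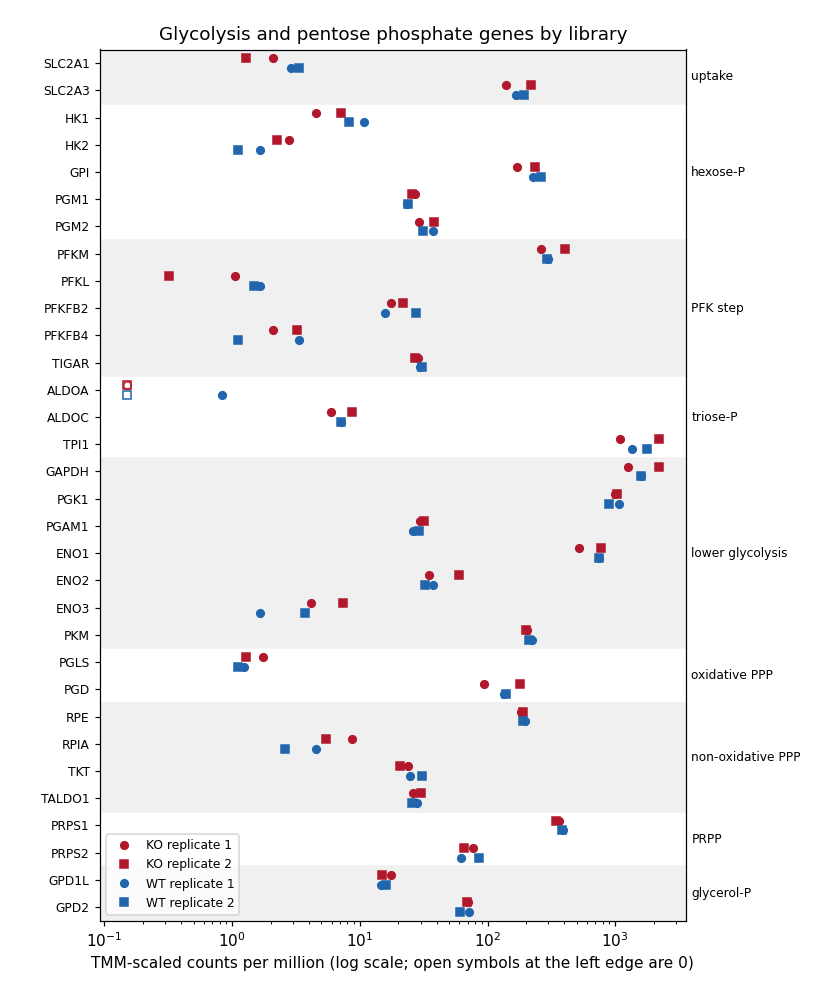
Level of each of the 32 genes in each library, in CPM scaled by TMM on a log axis, with KO libraries in red above WT libraries in blue and circles and squares for replicates 1 and 2; open symbols at the left edge are counts of 0. TPI1, GAPDH, PGK1 and ENO1 lie at the right, and ALDOA, PFKL, PGLS, HK2, SLC2A1 and PFKFB4 lie at or below about 3 CPM.

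No gene of glycolysis or the pentose phosphate pathway passed the test between KO and WT cells. Of the 32, 26 passed the filter on low counts, and 0 of these 26 were called by edgeR's quasi-likelihood test at a Benjamini-Hochberg adjusted p under 0.05, against 0.328% of the 10670 genes tested; 0 were called by DESeq2. An unadjusted p under 0.05 was reached by 0 of the 26, where 8.43% of all tested genes passed. The smallest adjusted p belonged to RPIA (0.617). In the authors' deposited table, an adjusted p was given for 29 of the 32 genes, of which 0 were called and the smallest was 0.999988.

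Log2 fold changes of KO over WT were above 0 in 14 and below 0 in 12 of the 26 genes. Their median was 0.02, where the median over all tested genes was 0.01. That background fell with GC content. Its median over tested coding genes was 0.05 at up to 40% GC, −0.03 at 50 to 55% and −0.12 at 55 to 60%. Of the 26 genes, 6 lay at 50 to 55% and 9 at 55 to 60%. Spearman's rho of GC content and log2 fold change was −0.162 over tested coding genes and 0.0455 over the 26. The log2 fold changes of the 26 genes ranged between −0.69 for HK1 and 1.08 for ENO3. In bulk RNA, fewer cells of a kind and less RNA per cell cannot be told apart. KO and WT libraries did not overlap in 9 of the 26 genes, against 39.2% of all tested genes; PGAM1, ENO3, RPIA and PGM1 were higher in both KO libraries, and HK1, PKM, TKT, PRPS1 and TIGAR were lower in both. That share, 34.6%, was close to the background.

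The size of change that the data leave possible differed by gene. The 95% interval of the fold change lay within 1.5-fold in either direction for 10 genes: SLC2A3, PFKM, PGK1, PKM, RPE, TALDO1, PGM2, PRPS1, PRPS2 and GPD2. It lay within 2-fold for 22 genes, the exceptions being HK1, ENO2, ENO3 and RPIA. The median standard error of the 26 log2 fold changes was 0.23, against 0.28 over all tested genes. In simulated counts for the 10670 genes of this comparison, the test called 6.35% of genes changed 1.5-fold, 43.5% of genes changed 2-fold and 88.5% of genes changed 4-fold. The changed genes were drawn at random from genes of all levels, and the simulation made 94 calls against 35 in the data. On average over such genes a 1.5-fold change was mostly not called, but the share for genes of the list was not measured.

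**Figure D2:**
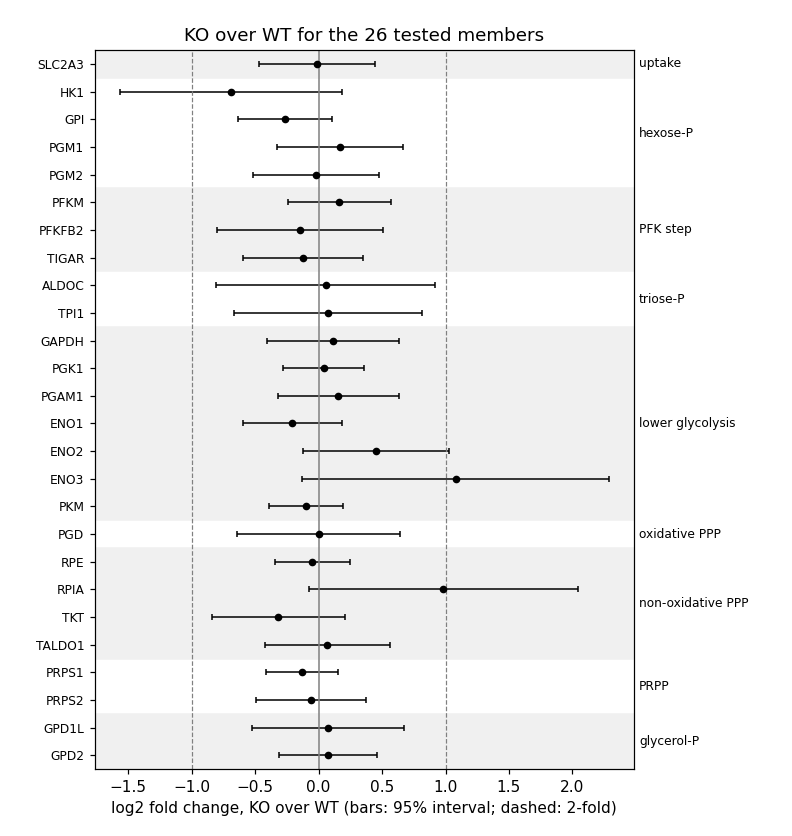
Log2 fold change of KO over WT for the 26 tested genes, in the order of the pathway, with 95% intervals from edgeR (2 libraries per group) and dashed lines at 2-fold. Every interval includes 0, and those of HK1, ENO2, ENO3 and RPIA reach past a dashed line.

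Of the transporter genes for glucose uptake in the list, SLC2A3 had nearly all the counts. SLC2A3 encodes the high-affinity transporter GLUT3, and its levels were 138 and 219.7 CPM in KO libraries against 167 and 194 CPM in WT libraries. Both WT values lay between the KO values, and the log2 fold change was −0.01 ± 0.21 (SE). SLC2A1, which encodes the widely expressed transporter GLUT1, had 6 and 4 counts in KO libraries and 7 and 9 in WT libraries, a KO to WT ratio per total count of 0.531 (95% exact counting interval 0.215 to 1.25). It stayed below the filter, and a difference was not detectable at this depth.

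Among genes of hexose phosphates, HK1 had the lowest fold change of the tested genes of the list. Hexokinase 1, which traps glucose in the cell as glucose 6-phosphate, had 4.52 and 7.09 CPM in KO libraries and 10.8 and 8.17 CPM in WT libraries (13 and 22 counts against 26 and 22). Both KO libraries were below both WT libraries, at a log2 fold change of −0.69 ± 0.40 (SE; 95% interval −1.57 to 0.19; edgeR adjusted p = 0.681). HK2, the inducible hexokinase, had 8 and 7 counts in KO libraries against 4 and 3 in WT libraries, a ratio of 1.82 whose counting interval, 0.699 to 5.28, includes 1. GPI, which interconverts glucose and fructose 6-phosphate, had 171 and 236 CPM in KO libraries and 227 and 262 CPM in WT libraries (−0.26 ± 0.17, SE).

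PGM1, the main phosphoglucomutase that links glycogen to glycolysis, had 27.1 and 25.8 CPM in KO libraries against 23.3 and 23.8 CPM in WT libraries. The groups did not overlap, but the log2 fold change of 0.17 ± 0.23 (SE) was smaller than its standard error. PGM2, which acts mainly on pentose phosphates, had 29.2 and 38.3 CPM in KO libraries and 37.4 and 31.2 CPM in WT libraries, with both WT values inside the KO range.

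At the phosphofructokinase step PFKM, the muscle-type subunit, was by far the most abundant. It had 263 and 401 CPM in KO libraries and 299.8 and 294 CPM in WT libraries, a log2 fold change of 0.16 ± 0.18 (SE) with the WT values again between the KO values. PFKL, the liver-type subunit, had 3 and 1 counts in KO libraries and 4 and 4 in WT libraries, a ratio of 0.425 (counting interval 0.0936 to 1.59). PFKFB2 and PFKFB4 encode bifunctional enzymes that set the level of fructose 2,6-bisphosphate, the activator of phosphofructokinase. PFKFB2 had 17.4 and 21.9 CPM in KO libraries and 15.8 and 27.5 CPM in WT libraries, overlapping fully, and PFKFB4 had 6 and 10 counts in KO libraries against 8 and 3 in WT libraries. TIGAR, which opposes this activation, had 28.5 and 27.1 CPM in KO libraries and 29.5 and 30.8 CPM in WT libraries; these did not overlap and differed by −0.12 ± 0.22 (SE) on the log2 scale.

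ALDOA, the aldolase of most tissues (chromosome 16, 30064164 to 30070457 of GRCh38), was almost without counts. It had 0 and 0 counts in KO libraries and 2 and 0 in WT libraries, so both groups were at or under the floor of 3 counts and no fold is given. In GENCODE 29, 100% of its coding bases and 42.3% of its exon bases also belong to exons of other genes on the same strand, among them the protein-coding gene AC093512.2, which had 0 counts over the 4 libraries. TIGAR shares 96.1% of its coding bases in the same way, with a gene that also had 0 counts. TIGAR itself had 82 and 84 counts in KO libraries and 71 and 83 in WT libraries. The annotation used for counting is not given, so the overlaps of either gene may differ there. The part of the ALDOA overlap in its low count was not tested. ALDOC, the brain-type aldolase, had 5.92 and 8.70 CPM in KO libraries and 7.06 and 7.06 CPM in WT libraries, a log2 fold change of 0.05 ± 0.39 (SE).

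In lower glycolysis, all 7 genes were tested, and the abundant ones differed little between the groups. TPI1, one step above, had 1099 and 2197 CPM in KO libraries and 1348 and 1779.5 CPM in WT libraries, and GAPDH had 1252 and 2185 CPM in KO libraries and 1586 and 1593 CPM in WT libraries. In both genes KO replicate 1 was the lowest and KO replicate 2 the highest library. The log2 fold changes were 0.08 ± 0.31 for TPI1 and 0.11 ± 0.23 for GAPDH (SE), and neither direction was stable: without KO replicate 2 the values were −0.50 and −0.34, and without KO replicate 1 they were 0.46 and 0.43. PGK1 had 987 and 1024 CPM in KO libraries and 1063 and 895 CPM in WT libraries, and its interval was among the narrowest, 0.825-fold to 1.28-fold.

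PGAM1, phosphoglycerate mutase, had 29.6 and 31.9 CPM in KO libraries and 26.2 and 28.98 CPM in WT libraries (0.16 ± 0.22, SE). PKM, pyruvate kinase, which makes pyruvate and ATP in the last step, had 205 and 201 CPM in KO libraries against 222 and 213 CPM in WT libraries (−0.10 ± 0.13, SE). Neither gene overlapped between the groups, and both differences were within their standard errors; with an offset for GC content the value of PKM was 0.06.

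The 3 enolases did not share a direction. ENO1 had 519 and 775 CPM in KO libraries and 752 and 741 CPM in WT libraries (−0.21 ± 0.18, SE), so the difference lay in KO replicate 1 alone. ENO2, the neuronal enolase, had 34.8 and 60.2 CPM in KO libraries and 37.4 and 32.3 CPM in WT libraries, and here KO replicate 2 alone stood above the rest (0.45 ± 0.26, SE; edgeR adjusted p = 0.681). ENO3, the muscle enolase, had 12 and 23 counts in KO libraries and 4 and 10 in WT libraries, at a log2 fold change of 1.08 ± 0.55 (SE; 95% interval −0.13 to 2.29; edgeR adjusted p = 0.642). Both KO libraries were above both WT libraries, on 49 counts in all.

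In the oxidative pentose phosphate branch PGD, which makes NADPH and ribulose 5-phosphate from 6-phosphogluconate, had 94.3 and 179 CPM in KO libraries and 134 and 140.1 CPM in WT libraries. The KO and WT means were both 137 CPM, with an SD of 60.2 between KO libraries and 4.50 between WT libraries. PGLS had 5 and 4 counts in KO libraries and 3 and 3 in WT libraries, a ratio of 1.27 (counting interval 0.405 to 4.35).

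In the non-oxidative branch the abundant gene was RPE, ribulose phosphate epimerase, with 182 and 190.3 CPM in KO libraries and 195 and 190.3 CPM in WT libraries. RPIA, ribose 5-phosphate isomerase, had 25 and 17 counts in KO libraries and 11 and 7 in WT libraries, that is 8.70 and 5.48 CPM against 4.57 and 2.60 CPM. Both KO values were above both WT values, at a log2 fold change of 0.98 ± 0.48 (SE; 95% interval −0.07 to 2.04), and this was the smallest p of the list. TKT, transketolase, had 23.7 and 20.6 CPM in KO libraries and 24.5 and 30.5 CPM in WT libraries, lower in both KO libraries at a log2 fold change of −0.32 ± 0.24 (SE). TALDO1, transaldolase, had 26.1 and 30.3 CPM in KO libraries and 28.2 and 25.6 CPM in WT libraries, and the groups overlapped.

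PRPP synthesis draws on the ribose 5-phosphate of this branch. PRPS1 had 363 and 342 CPM in KO libraries and 388 and 382 CPM in WT libraries, lower in both KO libraries but by only −0.13 ± 0.13 (SE) on the log2 scale. PRPS2, its isoenzyme, had 76.9 and 65.4 CPM in KO libraries and 61.9 and 85.8 CPM in WT libraries, with both KO values between the WT values. GPD2, the mitochondrial glycerol 3-phosphate dehydrogenase that passes cytosolic electrons to the respiratory chain, had 70.3 and 68.6 CPM in KO libraries and 71.4 and 60.6 CPM in WT libraries. GPD1L, related to the cytosolic enzyme of that shuttle, had 17.4 and 14.8 CPM in KO libraries and 14.5 and 16.0 CPM in WT libraries. Both glycerol phosphate genes had a log2 fold change of 0.07, with standard errors of 0.27 for GPD1L and 0.18 for GPD2.

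The spread between the KO libraries was wider than that between the WT libraries in many of the abundant genes. The log2 ratio of KO replicate 2 over KO replicate 1 was 1.00 for TPI1, 0.93 for PGD and 0.80 for GAPDH. The corresponding WT ratios, replicate 2 over replicate 1, were 0.40 for TPI1, 0.07 for PGD and 0.01 for GAPDH. SLC2A3, PFKM and ENO1 followed with KO ratios of 0.67, 0.61 and 0.58. PGK1, RPE, PKM and PRPS1 stood apart, since their KO libraries differed by at most 0.09.

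A bound of 100 CPM for abundant genes was chosen after the values were seen. Of 11 genes of the list above it, 9 were higher in KO replicate 2 than in KO replicate 1, and 6 of the 11 by more than 0.5 on the log2 scale, where 8.45% of the 1870 tested genes above that level were. The median absolute log2 ratio of these 11 genes was 0.58 between KO libraries and 0.06 between WT libraries, against 0.11 and 0.16 over the 1870 genes. Both WT libraries lay between the KO libraries in 8 of the 26 tested genes, 30.8%, against 15.8% of all tested genes. These 8 were SLC2A3, PFKM, ALDOC, TPI1, GAPDH, ENO1, PGD and PGM2.

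Across tested coding genes the KO ratio differed by GC content. The median log2 ratio of KO replicate 2 over KO replicate 1 was −0.06 in tested coding genes of at most 40% GC and 0.16 in those of 55 to 60% GC, while the ratio of WT replicate 2 over WT replicate 1 was 0.05 and −0.0045 in these bins. Of the 255 abundant genes between 50 and 60% GC, 30.2% had a KO ratio above 0.5, and of the 7 abundant genes of the list in that range 5 had. PKM, at 58.6% GC, was one that did not, while SLC2A3, at 45.8% GC and so outside that range, had a ratio of 0.67. The summed level of the blood cell markers was also higher in KO replicate 2, at 12.8 against 3.15 CPM in KO replicate 1, with most counts in HBB, LYZ and CD74. HBA2 went the other way, with 2 counts in KO replicate 2 and 4 in KO replicate 1, as did HBA1, with 0 and 1. The part of GC content, of these markers and of this library in the ratios was not tested.

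Several of these genes lie on chromosome 12. Of 6 tested genes of the list on chromosome 12, 5 had a KO ratio above 0.5, namely SLC2A3, PFKM, TPI1, GAPDH and ENO2, and TIGAR had −0.08. ENO2 and TIGAR lie below 100 CPM; of the 4 genes of the list above that level, 4 had a ratio above 0.5. Among the 133 abundant genes of chromosome 12 the share above 0.5 was 10.5%, and the median ratio was 0.0037. That background covers the whole chromosome, while GAPDH, TPI1, ENO2 and SLC2A3 lie close together, between positions 6533927 and 7936275 of GRCh38. PFKM starts at position 48105139 and TIGAR at 4307763. The part of position in the ratios was not tested.

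**Figure D3:**
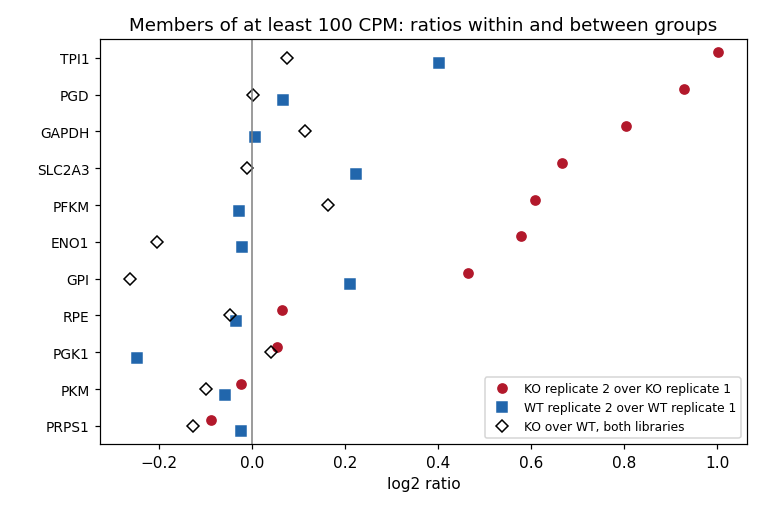
Log2 ratio of KO replicate 2 over KO replicate 1 (red circles), WT replicate 2 over WT replicate 1 (blue squares) and KO over WT (open diamonds) for the 11 genes of at least 100 CPM. The KO replicate ratio is above 0.5 for TPI1, PGD, GAPDH, SLC2A3, PFKM and ENO1, while every KO over WT value lies between −0.26 and 0.16.

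Genes rich in G and C were poorly represented among all coding genes, while genes of the list between 55 and 60% GC were mostly tested. Of protein-coding genes with at most 40% GC in the principal transcript 68.7% were tested, against 25.6% of those between 55 and 60% and 7.09% of those above 60%. Of the list, 11 of 11 genes up to 50% GC were tested, 6 of 8 between 50 and 55%, 9 of 10 between 55 and 60%, and 0 of 3 above 60%, which were PFKL, ALDOA and PGLS. TPI1, GAPDH and ENO1, at 55.9, 58.8 and 58.9% GC, were nonetheless among the 5 most abundant genes of the list. Across genes, which are not independent replicates, Spearman's rho of GC content and mean TPM was −0.306 over the 32 genes and −0.392 over 19827 coding genes. The deposited counts are those of 1 library type and 1 cell line, so how much of this is sampling in the library and how much is transcript level cannot be told apart.

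**Figure D4:**
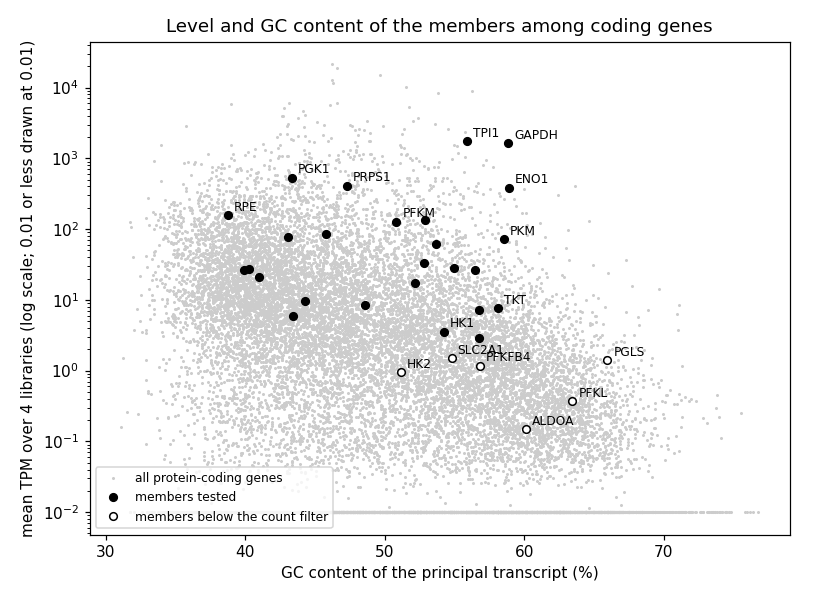
Mean TPM over the 4 libraries (log axis) against GC content of the principal transcript, with all protein-coding genes in grey, tested genes of the list as filled circles and the 6 genes below the count filter as open circles. The grey cloud thins out toward the upper right; TPI1, GAPDH and ENO1 lie near its upper edge at 55.9 to 58.9% GC, and PGLS, PFKL and ALDOA lie right of 60% GC.

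Isoenzyme shares were compared as the share of 1 gene in the summed TPM of its family. PFKM held 96.4% and 97.1% of phosphofructokinase TPM in KO libraries and 95.8% and 96.3% in WT libraries, and SLC2A3 held 93.6% and 95.2% of class I glucose transporter TPM in KO libraries and 92.4% and 93.2% in WT libraries. SLC2A14, a near-identical copy of SLC2A3, may share reads with it. PKM and PGK1 held 100% of their families, as PKLR and PGK2 had no count. PRPS1 held 82.9% and 84.3% of PRPP synthetase TPM in KO libraries and 86.6% and 81.9% in WT libraries.

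Leading shares did not overlap between the groups in the enolase and hexokinase families, nor in the phosphofructokinase and class I glucose transporter families above. ENO1 held 91.1% and 90.0% of enolase TPM in KO libraries, against 93.7% and 93.6% in WT libraries, and ENO2 held 7.52% and 8.62% in KO libraries against 5.74% and 5.04% in WT libraries. HK1 held 56.9% and 70.6% of hexokinase TPM in KO libraries against 82.1% and 74.1% in WT libraries, and HK2 held 36.4% and 23.3% in KO libraries against 13.1% and 10.5% in WT libraries. The HK1 and HK2 shares rest on 83 and 22 counts over the 4 libraries, and with the length of the principal transcript the HK1 shares of KO and WT overlapped. Of 10 families whose leading share varied, 4 reached the smallest p that an exact permutation test of 2 against 2 libraries allows, 0.333, and the smallest adjusted p over the families was 0.833.

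The phosphoglucomutase and transketolase families were led by a gene outside the list. PGM3, an acetylglucosamine phosphomutase of the hexosamine pathway, held 74.9% and 72.6% of phosphoglucomutase family TPM in KO libraries and 72.8% and 75.2% in WT libraries. TKTL1, a transketolase-like gene, held 65.7% and 62.5% of transketolase TPM in KO libraries and 65.0% and 60.8% in WT libraries. That order depended on the length used, since TKT led the family with the principal transcript.

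**Figure D5:**
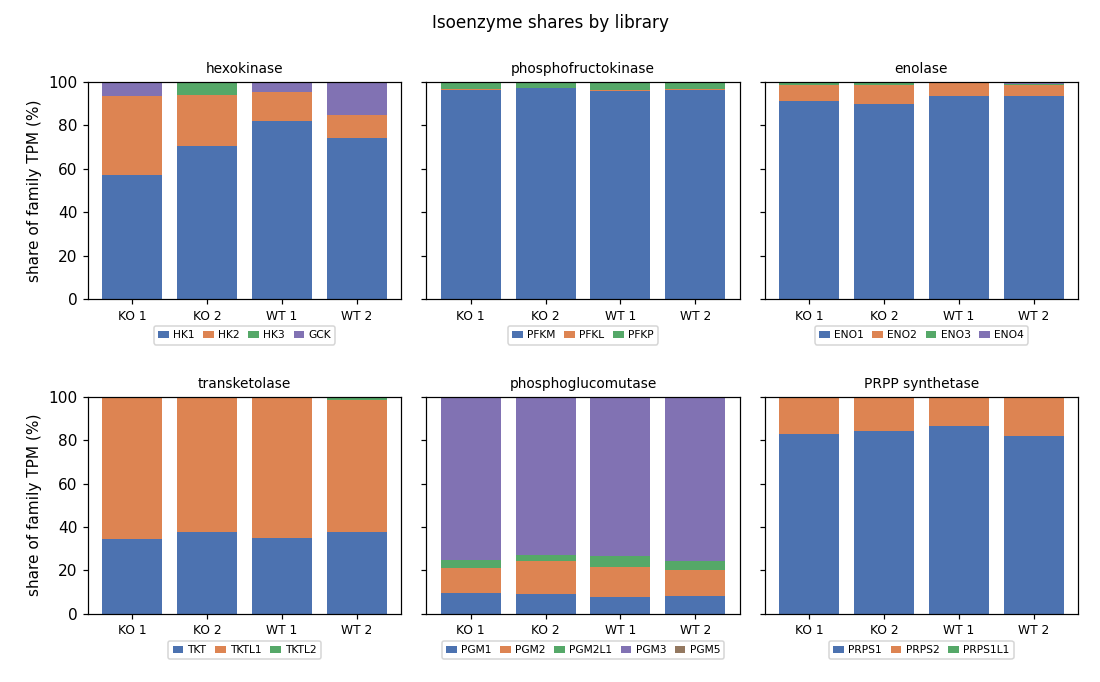
Share of each isoenzyme in the TPM of its family (percent, stacked to 100) in KO replicates 1 and 2 and WT replicates 1 and 2, for 6 families. HK2 takes more and HK1 less of the hexokinase bar in both KO libraries, on few counts, while PFKM, PRPS1 and PGM3 lead their families in all 4 libraries.

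Other genes of the pathways were read from a list of 52 that held no member of the 32. Of these, 20 were tested, 24 had a count but stayed below the filter and 8 had no count. By edgeR 0 of the 20 were called, with a median log2 fold change of −0.07. An unadjusted p under 0.05 was reached by 0 with a higher and 3 with a lower level. Among all tested genes 8.43% passed it, in either direction. FBP1, the fructose bisphosphatase of gluconeogenesis, which runs against phosphofructokinase, had 6 and 10 counts in KO libraries and 19 and 20 in WT libraries (−1.50 ± 0.46, SE; edgeR adjusted p = 0.344). PGM2L1, a glucose 1,6-bisphosphate synthase, and SLC2A12, a glucose transporter, had log2 fold changes of −0.59 and −0.58 (edgeR adjusted p = 0.537 for each). The most abundant were PGM3, GALM, PRPSAP2, DERA and BPGM, whose log2 fold changes lay between −0.07 and 0.09.

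Of 14 regulators of glycolytic transcription and glucose sensing, 11 were tested, 0 were called by edgeR and 0 by DESeq2. By edgeR, 2 with a higher and 1 with a lower level had an unadjusted p under 0.05. Among all tested genes 8.43% had one, in either direction. TXNIP, an arrestin-like protein that restrains glucose uptake, had 192 and 202 CPM in KO libraries against 140.4 and 108 CPM in WT libraries (0.66 ± 0.16, SE; edgeR adjusted p = 0.166). VHL, which targets HIF1A for degradation, had a log2 fold change of 0.90 ± 0.34 and ARNT, the partner of HIF1A, one of −0.35 ± 0.15 (SE; edgeR adjusted p = 0.487 and 0.579). PRKAA1 and PRKAA2, the catalytic subunits of AMPK, and MLX, the partner of the glucose-responsive factor MLXIP, had log2 fold changes between −0.13 and 0.13. TXNIP was called when replicate number was a term of the fit (edgeR adjusted p = 0.0101) and without a filter on low counts (0.0146), and over all settings its adjusted p ranged between 0.00994 and 0.752.

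Processed pseudogenes can take reads from their parent genes. Of 109 features named as pseudogenes of 13 of the genes, 26 had a count, 5 were tested and 0 were called by edgeR. TPI1P1 had 71 and 134 counts in KO libraries and 81 and 84 in WT libraries, GAPDHP1 49 and 81 against 63 and 67, and GAPDHP65 22 and 36 against 37 and 35. In TPI1P1, as in TPI1, KO replicate 1 was the lowest and KO replicate 2 the highest library. Summed over the libraries, pseudogene counts came to 2.05% of the TPI1 count and 2.83% of the GAPDH count.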

How the data were processed

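Polyadenylated RNA of HEK293 cells was sequenced as 2 HEMK1 KO and 2 WT libraries, grouped by their labels; 100 ng of total RNA entered a single-cell and low-input kit, per the labels' protocols. The submitters' processing notes name hg38, STAR, HTSeq, DESeq2, FastQC and Trimmomatic; the sources used here do not give versions, annotation, strand setting or filters, so reads of a gene and an antisense partner may not have been told apart. The authors deposited raw gene counts per library, and a comparison table with, per its file headers, a base mean (a signal scaled by size factors), log2 fold change, Wald score and p-value, used here only for side-by-side values.

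The 32 genes, the further lists and the tests were chosen with earlier results of these data known. All 32 genes are described. Of the other pathway genes and the regulators, those called, the 5 with the highest mean CPM and the 3 with the smallest p are named. Of pseudogenes the 3 with the most counts are named. HIF1A was added beside VHL and ARNT.

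Genes passing filterByExpr at a minimum count of 10 were scaled by TMM (factors 0.980 to 1.02) and tested together with edgeR 4.0.16, run in R 4.3.3, by its robust quasi-likelihood test with Benjamini-Hochberg adjustment, and called under 0.05. Types, lengths, overlaps and GC content came from GENCODE 29 (GRCh38), which held 57288 of the features; a gene name was found for 61463. CPM values are scaled by TMM, except that marker sums use library totals. TPM used exon lengths, which covered 97.3% of counts. Intervals for untested genes are 95% exact binomial ones and, like the floor of 3 counts per group, cover only counting error, as there were no molecular identifiers. Chi-square per degree of freedom came to 5.38 between KO and 5.01 between WT libraries, and to between 4.741 and 7.415 for pairs of 1 KO and 1 WT library. All were above sampling noise, and each library was counted as 1 replicate, which does not show that they were independent cultures. The fit was tested on simulated counts for the same 10670 genes, where 9 of 94 calls were false. Alternatives were other scalings, filters, DESeq2 1.42.0, a replicate block, each library left out, pseudogene sums and other lengths; the GC offset per library (loess, span 0.5) and the principal transcript length were added after the data were seen.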

Additional observations from a re-analysis of the deposited data

How the results depend on the processing

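Under all 14 other settings of the fit, 0 of the 26 tested genes were called (22 of them entered the 10 CPM filter), and 0 of the other pathway genes under these settings without the pseudogene sums, which were not run for them. The smallest adjusted p of the 26 was between 0.152 (ENO2, without KO replicate 1) and 1 (DESeq2). The number of all genes called was 35 in the reported fit, against 156 without a filter on low counts, 16 with at least 10 CPM in 2 libraries, 140 with a replicate block and 123 with a block and a GC offset. It was 7 and 14 without WT replicates 1 and 2, and 98 and 189 without KO replicates 1 and 2. With 1 library left out, the lone library of an arm was assumed to vary like the others.

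The direction of 14 of the 26 log2 fold changes depended on 1 library. With each library left out in turn they ranged from −0.38 to 0.25 for SLC2A3, −0.17 to 0.40 for PFKM, −0.48 to 0.29 for PFKFB2, −0.25 to 0.27 for ALDOC and −0.50 to 0.46 for TPI1. The ranges were −0.34 to 0.43 for GAPDH, −0.11 to 0.17 for PGK1, −0.52 to 0.022 for ENO1, −0.53 to 0.36 for PGD and −0.040 to 0.14 for TALDO1. They were −0.22 to 0.13 for PGM2, −0.27 to 0.17 for PRPS2, −0.076 to 0.19 for GPD1L and −0.073 to 0.20 for GPD2. Among the other 12, HK1 ranged from −1.05 to −0.44, RPIA from 0.59 to 1.42 and ENO3 from 0.61 to 1.75.

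PGD, at 0.001279, also turned sign with RLE size factors (−0.0175), library totals (−0.0118), the 10 CPM filter (−0.0138), pseudogene sums (−0.00165) and DESeq2 (−0.00316). PKM was 0.063 with a GC offset and 0.061 with the block and offset together. Under pairing by number, the deviations of same-numbered libraries correlated at −0.0351 over genes. A shift within 1 arm could hide a shared one, so this value does not settle whether the numbers paired the libraries. The replicate block gave −0.059 for PGD and raised the calls among regulators to 1, TXNIP. That count was also 1 without a filter and 1 with the block and offset. The causes were not tested.

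Depth limits the 6 untested genes most. The exact counting interval of the KO to WT ratio spanned 0.0936 to 1.59 for PFKL and 0.405 to 4.35 for PGLS.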
